A study of Mus musculus with 27 samples.

Results

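The 10 imprinted genes Igf2, H19, Igf2r, Dlk1, Meg3, Peg3, Mest, Grb10, Plagl1 and Cdkn1c were followed through 27 RNA-seq libraries of mouse fibroblasts. They were chosen by name, as well-known genes expressed from a single parental allele, with earlier results of these data known. Counts of members beside the share of all genes are therefore descriptions. All 10 have a value in every library, of 20330 genes that do. A gene was tested in an experiment when it reached 1 FPKM (fragments per kilobase of transcript and per unit of sequencing depth) in at least 3 libraries of the total RNA experiment, or 2 of the others. By this filter 8 of the 10 were tested in the total RNA experiment, 9 in the siRNA experiment and 9 in the inhibitor experiment, and 8 in all 3 experiments. Meg3 was tested in none of the 3 and Plagl1 not in total RNA.

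All cells were Setdb1 cKO iMEFs, immortalized mouse embryonic fibroblasts with a conditional allele of Setdb1, an enzyme that methylates histone H3 on lysine 9. The line was recloned from single cells and a clone was chosen for its response (MEF3-12), which the paper names for the long-term KO cells. All libraries may come from this 1 clone, but this is not stated. 4OHT (4-hydroxytamoxifen) switches on the Cre recombinase. No library of cells without the conditional allele was deposited to separate the effect of 4OHT from that of the deletion. The total RNA experiment held 3 libraries each of untreated cells, of cells given 4OHT for 4 days and harvested on day 5 (4OHT day 5), and of cells cultured after 4OHT for more than 2 weeks by their labels, where the methods of the paper give more than 1 week (long-term KO), all made from RNA depleted of rRNA. The siRNA experiment held 2 libraries each of siCtrl, siDnmt1, 4OHT + siCtrl and 4OHT + siDnmt1, harvested on day 6, with 4OHT given from day 0 and siRNA against Dnmt1, the maintenance DNA methyltransferase, or a control siRNA. In the inhibitor experiment there were 2 libraries each: untreated cells, TSA (150 nM trichostatin A, an inhibitor of histone deacetylases, for 24 h), PD0325901 (1 uM of this MEK inhibitor for the last 24 h), 4OHT day 6, and 4OHT + PD0325901.

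Genomic imprinting marks some genes by parental origin, through DNA methylation laid down in the germ line at control regions, so that the copy from a single parent is transcribed. Dnmt1 copies this methylation at each division, and in early embryos KRAB zinc finger proteins such as Zfp57 bring Trim28 and Setdb1 to the methylated copy. Many paternally expressed genes promote growth of the embryo and many maternally expressed genes restrain it, and several are lively in embryonic fibroblasts and silent in most adult cells. A value from bulk RNA adds both alleles, so none of the values below says which parental copy was transcribed, and fewer cells that express a gene cannot be told apart from less RNA per cell.

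The targeted genes were looked at first. Dnmt1 was at 80.5 and 73.4 FPKM in siCtrl, 12.2 and 10.6 in siDnmt1, 78.7 and 78.35 in 4OHT + siCtrl, and 12.2 and 11.4 in 4OHT + siDnmt1. The siDnmt1 libraries lay below every library without that siRNA, and Dnmt1 fell by limma's test both alone (log2 fold change -2.75, SE 0.11, adjusted p = 0.000233) and with 4OHT (-2.72, SE 0.11, adjusted p = 0.000198). In the other experiments Dnmt1 lay between 49.7 and 94.85 FPKM.

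Setdb1 was at 5.95, 5.53 and 5.165 FPKM in untreated total RNA, 4.16, 4.196 and 6.52 at 4OHT day 5, and 7.24, 7.32 and 6.96 in long-term KO. In the siRNA experiment it was at 7.40 and 6.48 in siCtrl, 6.08 and 5.54 in siDnmt1, 7.58 and 5.00 in 4OHT + siCtrl, and 5.395 and 6.94 in 4OHT + siDnmt1. The groups with and without 4OHT overlap in both experiments except that long-term KO lay above untreated, and no comparison of Setdb1 there passed the test with its 2-fold limit. In the inhibitor experiment it was at 8.76 and 10.1 in untreated cells, 9.56 and 9.001 with TSA, 5.34 and 5.56 with PD0325901, listed at 0 and at 5.30 at 4OHT day 6, and listed at 0 in both libraries of 4OHT + PD0325901. The labels do not say which part of the gene recombination removes, and a value over the whole gene does not report the loss of a part, so Setdb1 checks no label in the first 2 experiments. Each group below is therefore the set of libraries labelled with that name. Between 6 and 28 genes per library are listed at 0 while every other library of the group holds at least 10 FPKM, so a value of 0 in a single library is not by itself an absence.

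The labels of 1 library disagree. For PD0325901 replicate 2 a title line inside the deposited data names 4OHT + PD0325901, while the line after it names PD0325901. Its Setdb1 of 5.56 FPKM is near the 5.34 of PD0325901 replicate 1, while both libraries of 4OHT + PD0325901 are listed at 0. It is also near the 5.30 of 4OHT day 6 replicate 2, so such a value occurs with 4OHT too. Its fibroblast markers sum to 5851 FPKM, against 5147 in PD0325901 replicate 1 and 3156 and 3256 with 4OHT + PD0325901. The members are mixed. Its Mest of 19.2 FPKM lies nearer the 8.63 of PD0325901 replicate 1 than the 4.87 and 4.25 of 4OHT + PD0325901. Its Plagl1 of 2.12 lies nearer their 1.18 and 2.01 than the 0.502 of PD0325901 replicate 1. Which label holds was not tested. The library was used as labelled. Members whose call changes without it are given with and without it. Other values, among them those of other listed genes, markers and list counts with PD0325901, are given with it alone.

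**Figure D1:**
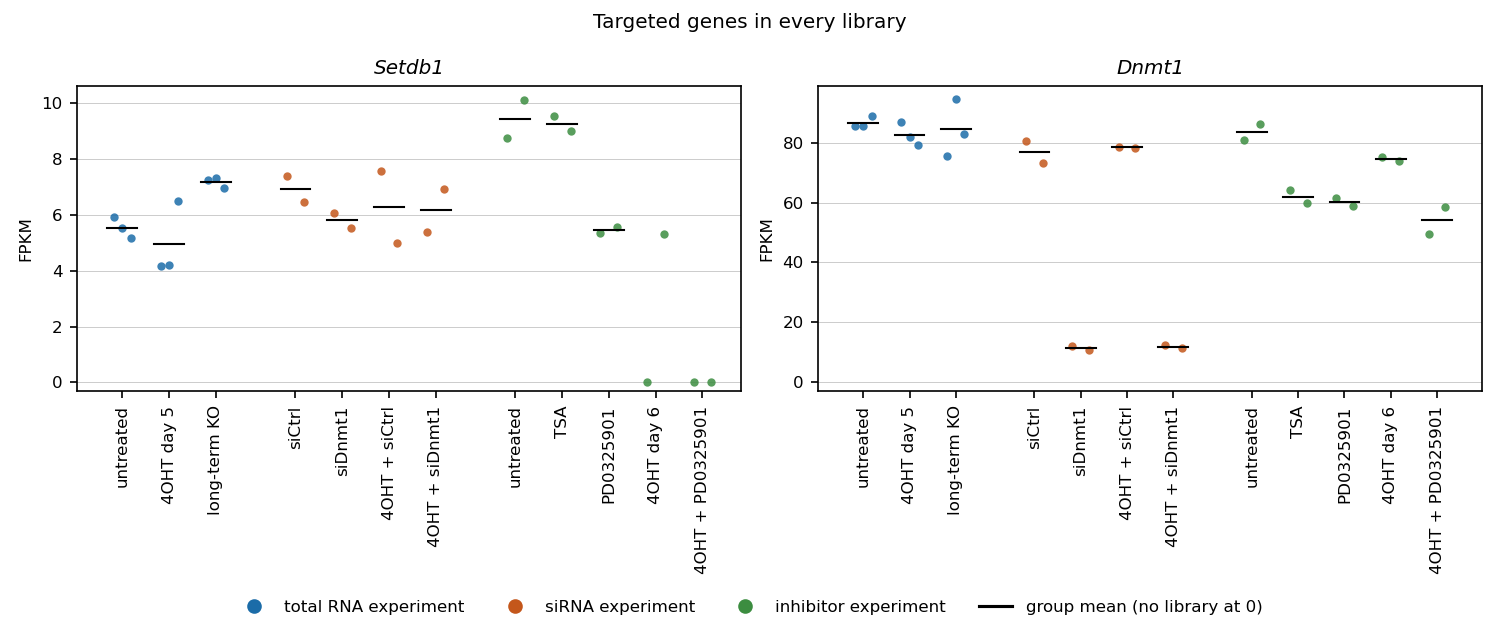
Setdb1 and Dnmt1 in FPKM (linear axis, no offset) in each of the 27 libraries by group. Points are libraries and lines are group means, left out where a library is listed at 0. Dnmt1 is between 10.6 and 12.2 FPKM in the 4 libraries with siDnmt1 and at least 49.7 in all others, and Setdb1 is listed at 0 in 3 inhibitor libraries with 4OHT.

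The cells carry the marks of fibroblasts. Of 12 fibroblast markers, 10 to 11 reached 1 FPKM in the total RNA libraries, 11 to 12 in the siRNA libraries and 10 to 11 in the inhibitor libraries, with summed levels of 1683 to 2482, 1899 to 4315 and 2521 to 5851 FPKM. Vim or Col1a1 was the most abundant, and Lum was the lowest, at most 1.64 FPKM and listed at 0 in some libraries of each experiment. Of the haematopoietic markers, 0 of the 5 with a value reached 1 FPKM in total RNA, and elsewhere 1 of 6, Cd68, while Cd3e and Adgre1 were listed at 0 in every library. Of 5 epithelial markers, at most 1, 2 and 3 reached 1 FPKM in the 3 experiments in that order, of 4 endothelial markers 0, 0 and 1, of 5 pluripotent markers 1, 2 and 2, of 4 skeletal muscle markers 0, 2 and 1, and of 4 adipocyte markers 1, 2 and 2. Depth was estimated from the FPKM and its deposited interval, at a median of 38.0 M fragments per library in total RNA (lowest 35.8). The estimate was 14.8 M in the siRNA experiment (13.8 to 15.7) and 12.3 M in the inhibitor experiment (10.9 to 12.6). For the total RNA libraries the paper gives a larger number, counted in paired-end reads per sample.

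In untreated cells of the total RNA experiment the order of levels, per length of transcript, was H19 (mean 291.5 FPKM), Igf2 (117), Grb10 (77.1), Mest (73.1), Igf2r (61.3), Dlk1 (33.9), Cdkn1c (31.0), Peg3 (2.51) and Plagl1 (0.102), with Meg3 listed at 0 in all 3 libraries. Neighbours in this order did not overlap, except that Dlk1 (26.0 to 48.35 FPKM) and Cdkn1c (30.0 to 32.1) were not separated. H19 lay above 98.1% of the genes tested and Igf2 above 95.3%. In untreated cells of the inhibitor experiment H19 (266.8) and Igf2 (200.5) again led, followed by Dlk1 (82.5), Mest (78.2), Igf2r (70.2), Grb10 (69.4), Cdkn1c (51.1), Peg3 (2.29) and Plagl1 (0.41), with Dlk1 not separated from Mest nor Igf2r from Grb10. The siCtrl libraries had another order: Dlk1 (84.4), Igf2r (69.2), Grb10 (63.0), Mest (55.4), Cdkn1c (43.0), Igf2 (25.7), H19 (25.3), Peg3 (1.87) and Plagl1 (1.27), where Igf2 and H19 were not separated. The experiments differ in library type and handling and were not tested against each other.

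Promoter sequences are shown for Igf2, Peg3, Mest and Plagl1, 4 of the paternally expressed members, so that their CG sites, the places DNA methylation can take, can be seen. Promoters of 300 bases were available in RefSeq (GRCm38.p6) for 8 of the 10 members, 15 promoters in all, and are missing for H19 and Cdkn1c. They run 5′ to 3′ on the strand of the gene, in lower case with each CG in capitals, and for Igf2 and Mest the start with the most CG sites was taken.
Igf2 (chr7:142658755-142659054, minus strand): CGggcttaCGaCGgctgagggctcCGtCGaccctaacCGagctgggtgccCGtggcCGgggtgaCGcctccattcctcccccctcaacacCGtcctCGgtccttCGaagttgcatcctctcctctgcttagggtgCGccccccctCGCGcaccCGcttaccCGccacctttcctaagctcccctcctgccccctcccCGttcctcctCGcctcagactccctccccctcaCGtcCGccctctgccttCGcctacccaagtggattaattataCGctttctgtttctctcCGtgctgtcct
Peg3 (chr7:6730370-6730669, minus strand): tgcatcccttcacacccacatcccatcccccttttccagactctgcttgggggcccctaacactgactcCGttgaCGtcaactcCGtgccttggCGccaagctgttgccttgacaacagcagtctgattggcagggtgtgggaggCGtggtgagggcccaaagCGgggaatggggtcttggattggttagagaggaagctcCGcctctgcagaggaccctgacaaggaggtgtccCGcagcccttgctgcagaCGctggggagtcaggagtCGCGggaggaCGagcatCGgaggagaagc
Mest (chr6:30737800-30738099, plus strand): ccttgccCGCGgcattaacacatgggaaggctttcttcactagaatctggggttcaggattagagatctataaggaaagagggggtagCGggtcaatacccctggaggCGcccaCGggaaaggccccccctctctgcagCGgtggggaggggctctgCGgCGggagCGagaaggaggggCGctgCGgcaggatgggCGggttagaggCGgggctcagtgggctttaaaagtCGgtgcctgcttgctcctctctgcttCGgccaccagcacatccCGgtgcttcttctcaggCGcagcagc
Plagl1 (chr10:13090582-13090881, plus strand): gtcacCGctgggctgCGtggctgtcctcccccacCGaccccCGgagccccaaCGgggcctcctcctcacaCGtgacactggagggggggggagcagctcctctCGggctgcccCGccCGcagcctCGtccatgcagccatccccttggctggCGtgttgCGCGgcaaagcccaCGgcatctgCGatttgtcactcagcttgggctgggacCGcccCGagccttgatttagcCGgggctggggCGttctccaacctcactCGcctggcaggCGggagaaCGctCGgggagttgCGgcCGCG
These windows hold 24 CG sites in Igf2, 13 in Peg3, 17 in Mest and 26 in Plagl1, and that of Dlk1, also paternally expressed and not shown, holds 9, where the median of all 32851 promoters is 7 and the quartiles are 3 and 20. The most CG sites among the members are in a Grb10 promoter, with 45, more than in 98.1% of promoters, and the Igf2r promoter holds 34. The letters TGCCGC, the core that Zfp57 binds when methylated, were searched on both strands and are in 3813 promoters, 11.6% of all. Among the members they occur in a promoter of Igf2 (another start, chr7:142661222-142661521), Meg3, Mest, Grb10 and Plagl1, in 6 of the 15 promoters of members, of which the 2 of Mest overlap. Members have up to 4 promoters, so these are not independent. Counted by gene, with any promoter, 13.1% of all genes hold the letters. A match is a description of the letters and not of binding.

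Fold changes below are log2 fold changes of FPKM + 0.1 from limma, fitted on all genes of an experiment, with a standard error (SE) and a p-value adjusted over all genes tested. The addition of 0.1 understates the fold change of genes near that level. A gene is said to rise or fall when its adjusted p is under 0.05 and it changed at least 2-fold.

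**Figure D2:**
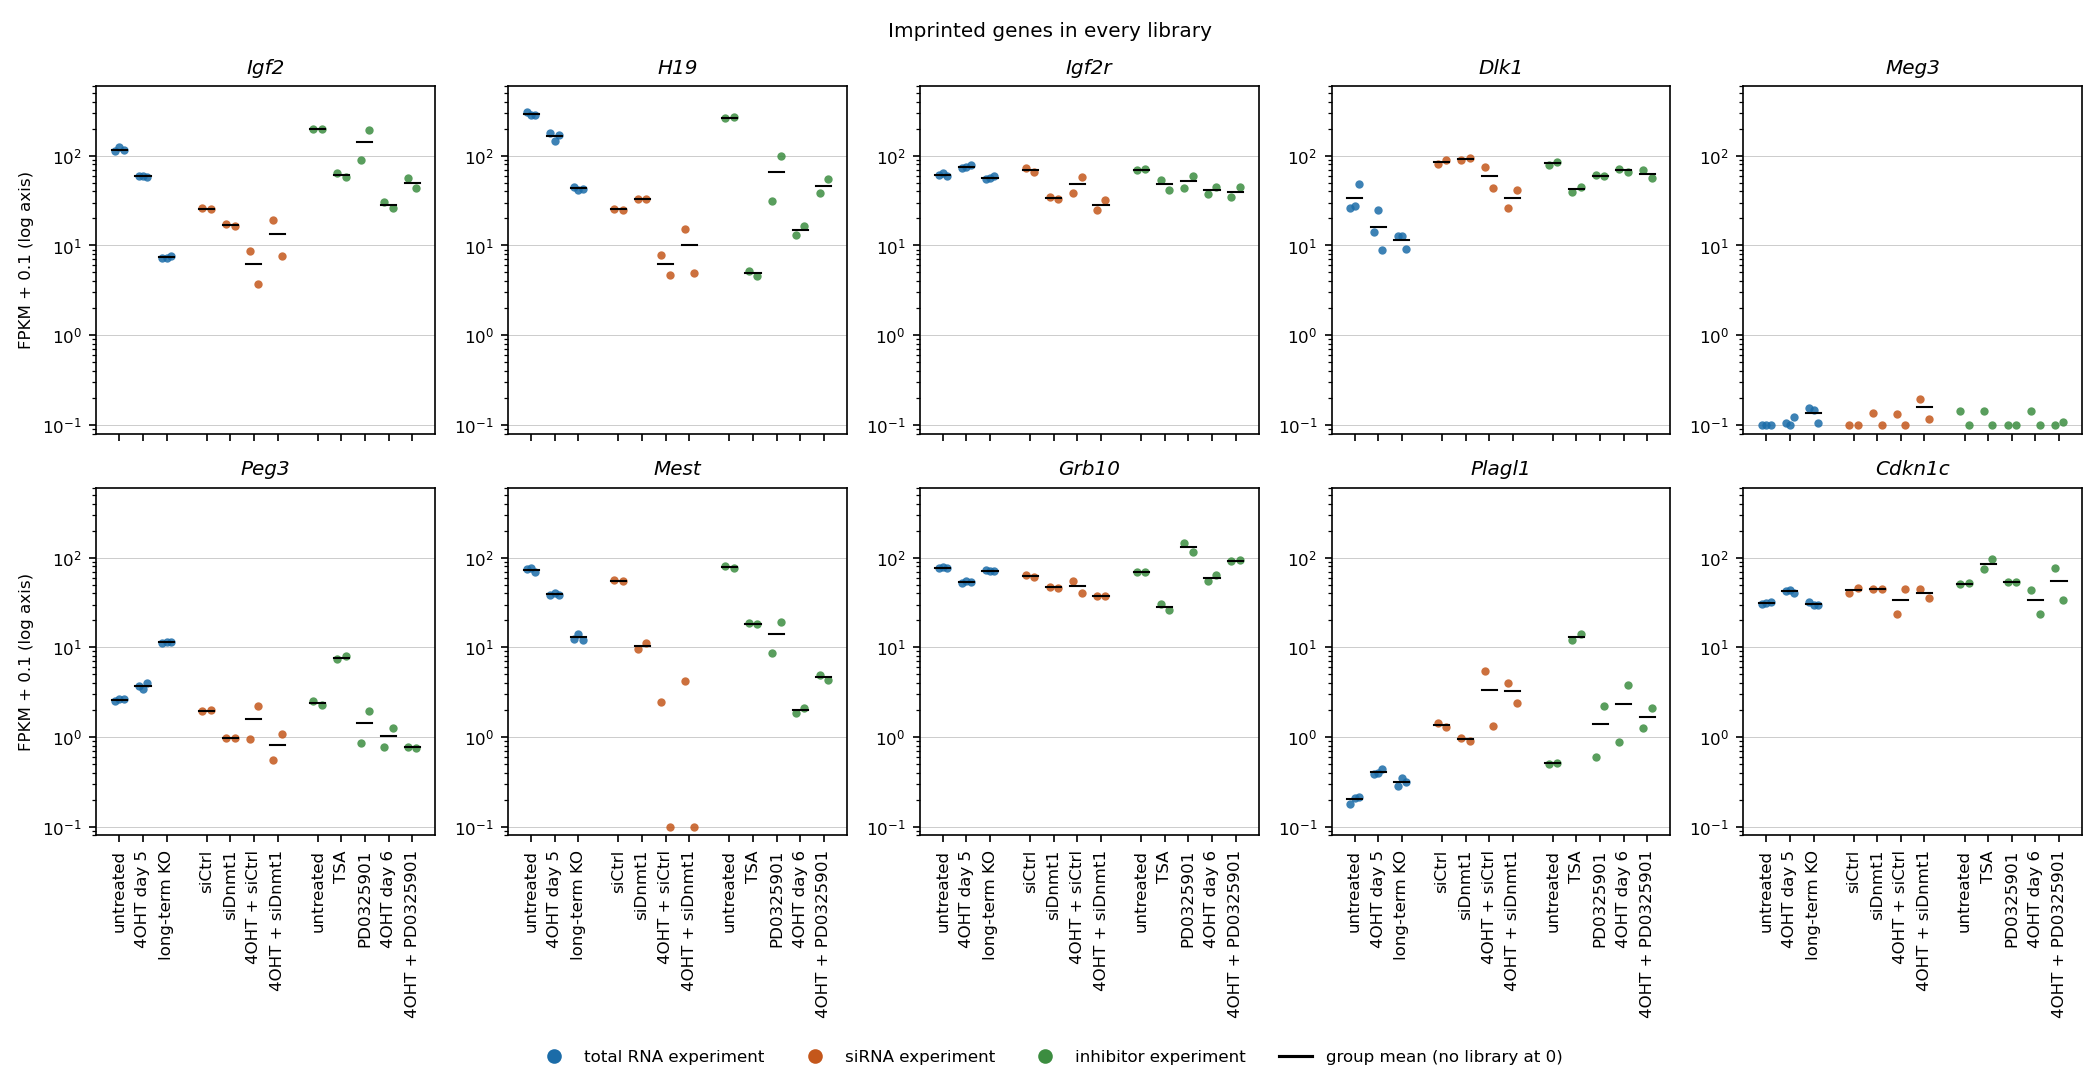
FPKM of each of the 10 imprinted genes (log axis, offset 0.1) in each library, by group; points are libraries and lines are group means, left out where a library is listed at 0. Within the total RNA and within the inhibitor experiment, Igf2, H19 and Mest are highest in the untreated libraries. Peg3 is highest in long-term KO, and Meg3 is at or near 0 throughout.

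The first comparison asks what changes early after 4OHT. At 4OHT day 5, 0 of the 8 members tested passed limma's test with the 2-fold limit. Of all genes 3.22% did (1.97% higher and 1.25% lower). All 8 had an unadjusted p under 0.05. The share of all genes under that p is not given, here or below, so such counts have no background. The median log2 fold change of the 8 was -0.68, against 0.00 over all genes. In all 8 the groups did not overlap, with 3 higher and 5 lower. Of all genes, 49.5% had groups that did not overlap.

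Igf2, the fetal growth factor, was at 113, 124 and 116 FPKM in untreated cells and 58.7, 59.96 and 58.3 at 4OHT day 5. Every treated library lay below every untreated one, at a log2 fold change of -0.99 (SE 0.04, adjusted p = 3.49e-06), just short of the 2-fold limit. Leaving out untreated replicate 1 (-1.02, adjusted p = 2.23e-05), untreated replicate 3 (adjusted p = 4.43e-05) or 4OHT day 5 replicate 2 (adjusted p = 4.51e-05) takes it past that limit, as do size factors (adjusted p = 2.38e-06), and over all left-out libraries the adjusted p lay between 1.31e-05 and 5.23e-05. H19, the noncoding RNA transcribed from the maternal copy of the same domain, was at 306, 286 and 283 FPKM and then 179, 146 and 170.4, lower in all 3 libraries (-0.82, SE 0.08, adjusted p = 0.000172). Igf2r, the receptor that takes IGF2 up for breakdown, was at 60.7, 63.5 and 59.7 FPKM and then 72.2, 75.4 and 78.15, higher in all 3 (0.29, SE 0.05, adjusted p = 0.00222).

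Among the other paternally expressed members, Mest, a protein of the alpha/beta hydrolase family, was at 74.7, 75.7 and 68.9 FPKM in untreated cells and 38.5, 40.6 and 38.0 at 4OHT day 5 (-0.90, SE 0.06, adjusted p = 3.6e-05). Peg3, a zinc finger protein, was at 2.44, 2.54 and 2.55 FPKM and then 3.60, 3.365 and 3.86 (0.50, SE 0.05, adjusted p = 0.000298). The groups of both genes were apart, in opposite directions. Dlk1, a membrane protein of the Notch ligand type that holds back fat cell formation, was at 26.0, 27.3 and 48.35 FPKM and then 14.04, 24.7 and 8.92. Its libraries varied more than those of any other tested member at day 5, by 1.46 on the log2 scale where the median gene varied by 0.14, and its value of -1.15 (SE 0.39, adjusted p = 0.0568) did not pass. Without 4OHT day 5 replicate 2 Dlk1 passed, at -1.53 (adjusted p = 0.0166, with 0.0166 to 0.155 over the left-out libraries), and with values of 0 taken as missing at -1.15 (0.0482).

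Of the maternally expressed members, Grb10, an adaptor that dampens insulin and IGF receptor signalling, was at 77.2, 78.05 and 76.0 FPKM and then 52.0, 54.5 and 53.2 (-0.53, SE 0.03, adjusted p = 7.66e-06). Cdkn1c, an inhibitor of cyclin-dependent kinases, was at 30.0, 31.0 and 32.1 FPKM and then 42.2, 43.3 and 40.5 (0.44, SE 0.05, adjusted p = 0.000311). Plagl1, a zinc finger transcription factor, was under 1 FPKM in all 9 total RNA libraries and was not tested, at 0.0804, 0.110 and 0.114 FPKM in untreated cells, 0.286, 0.3 and 0.336 at 4OHT day 5, and 0.187, 0.246 and 0.212 in long-term KO. Meg3, the noncoding RNA of the Dlk1 domain, was at most 0.0561 FPKM in total RNA, with deposited upper bounds up to 0.829. Absence of its RNA cannot be told apart from how its locus was annotated. Of the fibroblast markers 3 of the 11 tested fell at day 5, Col3a1, Pdgfra and Postn, and the summed level was 1683, 1854 and 1767 FPKM against 2129, 2158 and 2167 in untreated cells; their part in the members' values was not tested. Fabp4, of the adipocyte markers, fell at day 5, with summed adipocyte levels of 1.285, 0.946 and 0.777 FPKM against 2.51, 2.69 and 3.32. It reached 1 FPKM in the untreated libraries alone, so a lower level elsewhere is built into its being tested. Other sums were higher in every day 5 library than in any untreated one, with none of their genes called: pluripotent at 1.825, 1.38 and 1.42 FPKM against 0.315, 0.209 and 0.378, epithelial at 2.22, 2.66 and 2.01 against 1.503, 1.135 and 1.15, and muscle at 0.771, 0.701 and 0.7145 against 0.316, 0.296 and 0.240. The part of these markers was not tested.

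In long-term KO against untreated cells, 5 of the 8 members tested passed, where 13.8% of all genes did (7.67% higher and 6.17% lower), with Igf2, H19, Mest and Dlk1 lower and Peg3 higher. The median of the 8 was -0.81, against 0.07 over all genes. The groups did not overlap in 7 of the 8, as in 72% of all genes, and 7 had an unadjusted p under 0.05. No untreated culture is labelled as kept for as long as long-term KO. The deletion and the time in culture therefore cannot be told apart in any value of long-term KO.

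Igf2 was at 7.15, 7.19 and 7.63 FPKM in long-term KO, below every other total RNA library, and fell (-3.98, SE 0.04, adjusted p = 1.73e-09). H19 was at 45.05, 41.8 and 42.9 FPKM and fell as well (-2.75, SE 0.08, adjusted p = 7.96e-08). Both genes of the domain were thus lowest in long-term KO and between the other groups at day 5. Igf2r was at 54.7, 56.0 and 59.5 FPKM, just under the untreated libraries (-0.11, SE 0.05, adjusted p = 0.064).

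Mest was at 12.4, 13.85 and 12.1 FPKM and fell (-2.51, SE 0.06, adjusted p = 4.7e-08). Peg3 was at 11.2, 11.25 and 11.25 FPKM, above every other total RNA library, and rose (2.12, SE 0.05, adjusted p = 4.77e-08). Of the members tested in total RNA, Peg3 is the 1 member that rose. Dlk1 was at 12.7, 12.7 and 9.09 FPKM, below all untreated libraries but overlapping 4OHT day 5, and fell against untreated cells (-1.51, SE 0.39, adjusted p = 0.0107). Grb10, at 72.1, 71.0 and 71.2 FPKM (-0.11, SE 0.03, adjusted p = 0.00798), and Cdkn1c, at 32.05, 29.8 and 29.5 (-0.03, SE 0.05, adjusted p = 0.631), were near the untreated level. Of the fibroblast markers tested, 2 rose (Pdgfrb and Postn) and 1 fell (Pdgfra), and the summed level was 2482, 2407 and 2383 FPKM. Epcam (epithelial) and Fabp4 (adipocyte) fell and Nanog (pluripotent) rose, with summed levels of 0.335, 0.576 and 0.564 FPKM for epithelial markers against 1.503, 1.135 and 1.15, of 1.19, 1.03 and 1.27 for adipocyte markers against 2.51, 2.69 and 3.32, and of 1.53, 1.23 and 1.44 for pluripotent markers against 0.315, 0.209 and 0.378. Nanog reached 1 FPKM in the long-term libraries alone, Fabp4 in the untreated libraries alone and Epcam in untreated and 4OHT day 5 libraries alone, so a difference is built into their being tested. The part of these markers in the members' values was not tested.

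Long-term KO was also compared with 4OHT day 5, to ask how these groups differ. Time since the deletion and time in culture cannot be told apart here either. Here 4 of the 8 members passed, where 12.5% of all genes did (6.61% higher and 5.86% lower), and their median was -0.44 against 0.04 over all genes. Igf2 (-2.99, SE 0.04, adjusted p = 8.39e-09), H19 (-1.93, SE 0.08, adjusted p = 5.15e-07) and Mest (-1.60, SE 0.06, adjusted p = 4.51e-07) fell and Peg3 rose (1.62, SE 0.05, adjusted p = 1.97e-07). Grb10 was higher in every long-term library than at day 5 (0.42, adjusted p = 6.03e-06), while Igf2r (-0.41, adjusted p = 0.000137) and Cdkn1c (-0.46, adjusted p = 6.3e-05) were lower in every one, each by less than 2-fold. Dlk1 overlapped (-0.36, adjusted p = 0.459), and without 4OHT day 5 replicate 2 its value was 0.02. The fibroblast markers Col3a1, Pdgfrb and Postn rose and Pdgfra fell, with summed levels of 2482, 2407 and 2383 FPKM against 1683, 1854 and 1767. Epcam fell and Nanog rose, each tested through the groups where it is higher, with summed epithelial levels of 0.335, 0.576 and 0.564 FPKM against 2.22, 2.66 and 2.01, and pluripotent levels of 1.53, 1.23 and 1.44 against 1.825, 1.38 and 1.42. The muscle sum, with no gene tested, was 0.4855, 0.2995 and 0.301 against 0.771, 0.701 and 0.7145. Whether these markers bear on the members was not tested. The comparisons share libraries, and the values here follow from the comparisons with untreated cells. None is an independent repeat of another.

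**Figure D3:**
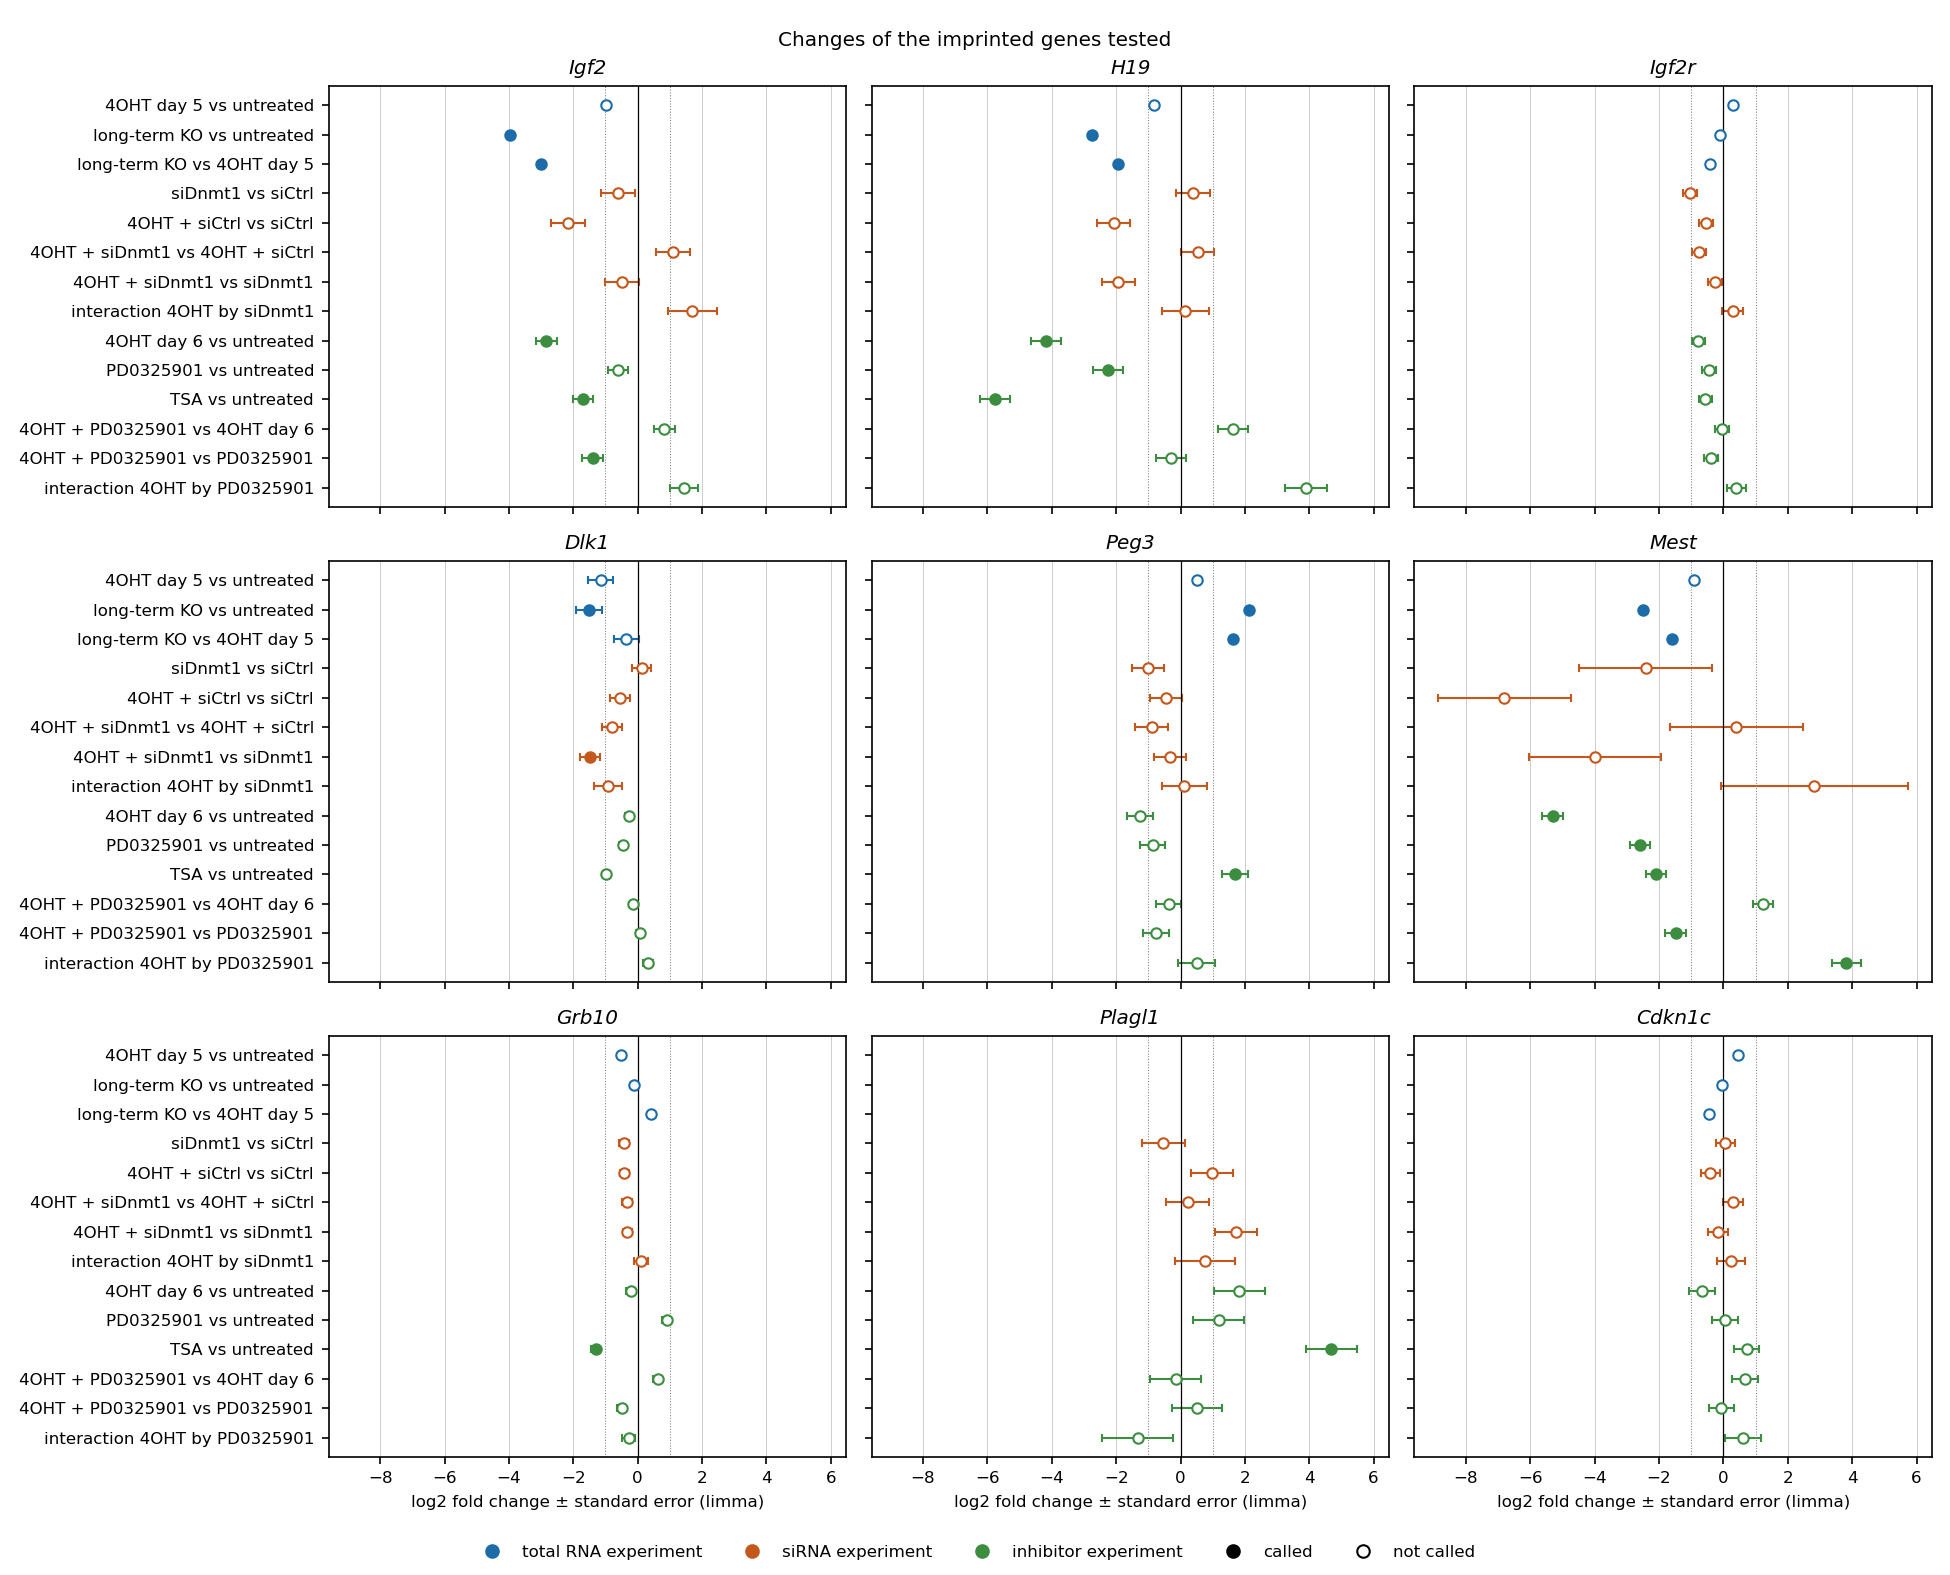
log2 fold change of each tested member in each comparison and interaction, from limma on log2(FPKM + 0.1); points are estimates, bars are standard errors, and filled points passed the test. Igf2, H19 and Mest lie below 0 in long-term KO (-3.98, -2.75 and -2.51) and 4OHT day 6 (-2.84, -4.19 and -5.31), and Plagl1 reaches 4.69 with TSA.

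The siRNA experiment asks what loss of Dnmt1 does, alone and together with 4OHT. With siDnmt1 against siCtrl, 0 of the 9 members tested passed limma's test, where 4.26% of all genes did (2.19% higher and 2.08% lower), and 2 had an unadjusted p under 0.05. The median was -0.53 against -0.09 over all genes, and the groups did not overlap in 8 of the 9, as in 71.1% of all genes.

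Mest was at 55.6 and 55.2 FPKM in siCtrl and 9.55 and 10.99 in siDnmt1, and both knockdown libraries were far below both controls. The fit takes 1 spread per gene from all groups, and Mest is listed at 0 in replicate 2 of both groups with 4OHT. The value of -2.42 (SE 2.06, adjusted p = 0.522) did not pass. When the fit held the compared groups alone the same difference passed (adjusted p = 0.000951), and with values of 0 taken as missing, a choice made after seeing the data, it passed as well (adjusted p = 0.00631, where other alternatives reach 0.839). Igf2r was at 72.75 and 65.7 FPKM and then 34.5 and 32.7, lower in both libraries (-1.04, SE 0.22, adjusted p = 0.0523). It passed without 4OHT + siCtrl replicate 1 (-1.04, adjusted p = 0.0127) or replicate 2 (-1.04, adjusted p = 0.0129), where the adjusted p over left-out libraries runs up to 0.272. Igf2, at 26.1 and 25.3 FPKM and then 17.3 and 16.2 (-0.61, SE 0.53, adjusted p = 0.53), lay lower in both libraries and H19, at 25.5 and 25.1 and then 33.1 and 33.0 (0.39, SE 0.52, adjusted p = 0.7), higher.

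Peg3 was at 1.85 and 1.89 FPKM in siCtrl and 0.884 and 0.872 in siDnmt1 (-1.01, SE 0.50, adjusted p = 0.277), with the groups apart. With only the compared groups in the fit Peg3 passed (-1.01, adjusted p = 0.0143), and Igf2r did too (-1.04, 0.00305). Dlk1 (80.05 and 88.7, then 89.8 and 93.2 FPKM), Grb10 (64.6 and 61.5, then 46.9 and 46.3) and Plagl1 (1.34 and 1.197, then 0.877 and 0.809) had adjusted p-values of 0.851, 0.151 and 0.666, and Cdkn1c, at 40.2 and 45.9 and then 44.85 and 44.7, overlapped. Meg3 was at most 0.0959 FPKM in the siRNA libraries, and the deposited upper bounds of its values reach 2.09. Of the fibroblast markers Thy1 rose with siDnmt1, with summed levels of 3352 and 3461 FPKM against 4261 and 4315. Krt18, an epithelial keratin under 1 FPKM in siCtrl that entered the test through other libraries, rose too, and the summed epithelial markers were 19.3 and 19.3 FPKM against 0.933 and 0.677 in siCtrl, with Krt5 listed at 0 in both knockdown libraries, and sums without a called gene were 1.45 and 1.435 against 0.524 and 0.408 for muscle and 3.97 and 3.79 against 2.89 and 3.002 for haematopoietic markers; their part in the members' values was not tested.

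With 4OHT + siCtrl against siCtrl, 0 of the 9 members passed limma's test, where 5.60% of all genes did (2.49% higher and 3.11% lower), and 4 had an unadjusted p under 0.05. The median was -0.54 against 0.09 over all genes. Igf2 was at 8.59 and 3.66 FPKM after 4OHT, below both siCtrl libraries (-2.17, SE 0.53, adjusted p = 0.0523). H19 was at 7.67 and 4.54 FPKM, also below both (-2.08, SE 0.52, adjusted p = 0.0563). Mest was at 2.35 FPKM in replicate 1 and listed at 0 in replicate 2, against 55.6 and 55.2 (adjusted p = 0.0857). These 3 genes were lower in both libraries, and several alternatives take them past the threshold. Without 4OHT + siCtrl replicate 1 Igf2 (-2.78, adjusted p = 0.0251) and Mest (adjusted p = 0.0402) passed, and with values of 0 taken as missing Mest was at -4.50 (adjusted p = 0.0023), and without either library of 4OHT + siDnmt1 Igf2 (-2.17, adjusted p = 0.0406 in both) and H19 (-2.08, adjusted p = 0.018 and 0.0179) passed. Igf2 also passed with the replicate block (-2.17, 0.0452), a pseudocount of 1 (0.0492) or values of 0 taken as missing (0.0459), H19 with the latter (0.0489) and Mest with a pseudocount of 1 (-4.95, 0.0216). Over the left-out libraries the adjusted p of these 3 genes ran up to 0.228, 0.238 and 0.292 for Igf2, H19 and Mest.

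The replicates of 4OHT + siCtrl are far apart for some members, and more apart over all genes than in the other groups. The median gene differs by 0.33 on the log2 scale there. It differs by 0.12 in siCtrl, 0.09 in siDnmt1 and 0.19 in 4OHT + siDnmt1. Plagl1 was at 5.33 FPKM in replicate 1 and 1.22 in replicate 2, against 1.34 and 1.197 in siCtrl, so a single library lies above the controls (0.97, SE 0.66, adjusted p = 0.359). Without replicate 2 the value was 1.99 (adjusted p = 0.0192) and without replicate 1 it was -0.05. Igf2r (38.45 and 58.6 FPKM), Dlk1 (74.7 and 44.0), Grb10 (55.4 and 40.3), Peg3 (0.846 and 2.12) and Cdkn1c (23.2 and 44.7) differed between the same libraries and none passed. Of the fibroblast markers 7 of 12 fell, among them Col1a1, Col1a2 and Col3a1. The summed level was 2125 and 2639 FPKM against 4261 and 4315 in siCtrl. Lum, also among the 7, reached 1 FPKM only in libraries without 4OHT, so a lower level with 4OHT is built into its being tested. Other sums were higher in both libraries, with none of their genes called: endothelial at 0.812 and 0.600 FPKM against 0.294 and 0.376, muscle at 0.777 and 1.84 against 0.524 and 0.408, pluripotent at 2.94 and 5.01 against 2.25 and 2.23, epithelial at 0.968 and 5.67 against 0.933 and 0.677, and haematopoietic at 3.30 and 8.63 against 2.89 and 3.002. Their part was not tested.

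With both treatments, 4OHT + siDnmt1 against 4OHT + siCtrl, 0 of the 9 members passed limma's test, where 1.49% of all genes did (1.07% higher and 0.422% lower), and 2 had an unadjusted p under 0.05. The median was 0.22 against -0.02 over all genes. Igf2 was at 19.2 and 7.52 FPKM with both treatments and overlapped 4OHT + siCtrl (1.09, SE 0.53, adjusted p = 0.331). H19, at 15.1 and 4.86 FPKM (0.53, SE 0.52, adjusted p = 0.605), overlapped too, and Mest was at 4.17 FPKM and listed at 0. Igf2r, at 24.6 and 32.1 FPKM (-0.76, SE 0.22, adjusted p = 0.162), was below both libraries of 4OHT + siCtrl, and without 4OHT + siCtrl replicate 1 it passed (-1.06, adjusted p = 0.0193). Col5a1, a fibroblast marker, fell, with summed fibroblast levels of 1899 and 2158 FPKM against 2125 and 2639. Summed levels were 43.3 and 26.8 FPKM against 0.968 and 5.67 for epithelial markers 3.27 and 5.12 against 0.777 and 1.84 for muscle markers, and 5.44 and 6.18 against 3.82 and 2.01 for adipocyte markers, with none of their genes called, and the part of these markers was not tested.

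Against siDnmt1 alone, 1 of the 9 members passed with 4OHT + siDnmt1, where 5.05% of all genes did (3.04% higher and 2.01% lower), and 3 had an unadjusted p under 0.05. The median was -0.33 against 0.15 over all genes, a median that scaling by size factors takes to -0.00 and quantile normalization to -0.03. Dlk1 was at 25.8 and 41.5 FPKM with both treatments against 89.8 and 93.2 with siDnmt1, and fell (-1.48, SE 0.31, adjusted p = 0.039). This call is lost when any of 5 libraries is left out: siCtrl replicate 1 (-1.48, adjusted p = 0.0867) or replicate 2 (-1.48, 0.0866), siDnmt1 replicate 1 (-1.51, 0.178) or replicate 2 (-1.45, 0.201), and 4OHT + siDnmt1 replicate 1 (-1.14, 0.134), and the adjusted p over left-out libraries lay between 0.0127 and 0.201. It is also lost with the replicate block (-1.48, 0.0668) and with no filter (-1.48, 0.0967). H19 (-1.93, SE 0.52, adjusted p = 0.0656) and Plagl1, at 3.95 and 2.31 FPKM (1.73, SE 0.66, adjusted p = 0.131), lay outside the siDnmt1 values. Both passed without 4OHT + siCtrl replicate 1 (adjusted p = 0.0464 and 0.0163) or replicate 2 (0.0467 and 0.0154), and H19 also without 4OHT + siDnmt1 replicate 1 (-2.74, 0.0281), while over the left-out libraries the adjusted p runs up to 0.256 for H19 and 0.375 for Plagl1. With only the groups compared Plagl1 passed too (1.73, 0.0419). Mest was at -3.99 in the full fit (SE 2.06, adjusted p = 0.233). With values of 0 taken as missing, which leaves 1 library of 4OHT + siDnmt1, Mest was at -1.28. Of the fibroblast markers 8 of 12 fell in this comparison, with summed levels of 1899 and 2158 FPKM against 3352 and 3461, and Myod1, a muscle marker, rose, with summed muscle levels of 3.27 and 5.12 FPKM against 1.45 and 1.435. Myod1 reached 1 FPKM in the libraries of 4OHT + siDnmt1 alone, so a higher level there is built into its being tested. Lum, among the 8 fibroblast markers, reached 1 FPKM only in libraries without 4OHT, so its lower level is built in likewise. Sums without a called gene were higher as well: haematopoietic at 8.35 and 8.58 FPKM against 3.97 and 3.79, epithelial at 43.3 and 26.8 against 19.3 and 19.3, endothelial at 0.621 and 0.832 against 0.388 and 0.265, pluripotent at 5.18 and 3.03 against 2.035 and 2.70, and adipocyte at 5.44 and 6.18 against 3.95 and 3.77. No test was made of their part in the members' values.

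The interaction, which tests whether the change with both treatments differs from the sum of each, passed for 0 of the 9 members in limma's test, where 0.388% of all genes passed (0.241% higher and 0.146% lower), and 0 had an unadjusted p under 0.05. The median was 0.24 against 0.07 over all genes, which quantile normalization takes to -0.04. The highest among values with no library at 0 was Igf2 at 1.70 (SE 0.75, adjusted p = 0.547) and the lowest Dlk1 at -0.93 (SE 0.43, adjusted p = 0.57).

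The inhibitor experiment repeats 4OHT at day 6 and adds PD0325901 and TSA. At 4OHT day 6 against untreated cells, 3 of the 9 members passed, Igf2, H19 and Mest, all lower, where 10.9% of all genes passed (5.03% higher and 5.89% lower) and 5 of the members had an unadjusted p under 0.05. The median was -0.78 against 0.00 over all genes, and the groups did not overlap in any of the 9, as in 68.4% of all genes.

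Igf2 was at 199.8 and 201 FPKM in untreated cells and 30.1 and 25.9 at 4OHT day 6, and fell (-2.84, SE 0.32, adjusted p = 0.00183). H19 was at 261 and 272 FPKM and then 12.95 and 16.3, and fell (-4.19, SE 0.47, adjusted p = 0.00189). Mest was at 80.1 and 76.4 FPKM and then 1.78 and 1.99, and fell (-5.31, SE 0.32, adjusted p = 0.000197). In each of the 3 genes the treated libraries were close to each other and far below the untreated ones, and each call was kept with any library left out. Igf2r, at 69.6 and 70.75 FPKM and then 37.0 and 44.9, was lower by less than 2-fold (-0.78, SE 0.21, adjusted p = 0.0335).

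Peg3 was at 2.40 and 2.18 FPKM in untreated cells and 0.685 and 1.17 at 4OHT day 6 (-1.26, SE 0.40, adjusted p = 0.0604), lower in both libraries. It passed without PD0325901 replicate 1 (-1.26, adjusted p = 0.0207) or replicate 2 (-1.26, adjusted p = 0.021), with up to 0.239 over the left-out libraries. It also passed with the replicate block (-1.26, 0.0465), with quantile normalization (-1.10, 0.0365) and with values of 0 taken as missing (-1.26, 0.0496). Plagl1, at 0.405 and 0.416 FPKM in untreated cells and 0.771 and 3.69 at 4OHT day 6, rests mainly on a single library (1.83, SE 0.79, adjusted p = 0.137), and without 4OHT day 6 replicate 1 it passed (2.89, adjusted p = 0.0461, with up to 0.516 over the left-out libraries). Plagl1 reached the filter of 1 FPKM in this experiment through treated libraries alone. Dlk1 (79.7 and 85.3, then 71.1 and 66.0 FPKM), Grb10 (69.3 and 69.6, then 54.9 and 64.8) and Cdkn1c (50.75 and 51.45, then 43.6 and 23.5) lay lower in both libraries, with adjusted p-values of 0.135, 0.313 and 0.271. Of 11 fibroblast markers tested 6 fell, and the summed level was 2571 and 2521 FPKM against 3104 and 3361. Kdr (endothelial), Des (muscle) and Pparg (adipocyte) rose and Fabp4 fell, with summed levels of 0.616 and 0.954 FPKM against 0.129 and 0.211 for endothelial markers, 0.933 and 0.666 against 0.0742 and 0.136 for muscle markers, and 6.71 and 5.63 against 8.91 and 13.85 for adipocyte markers. Kdr and Des entered the test through libraries of other treatments. The pluripotent sum, with no gene called, was 2.74 and 2.83 FPKM against 1.02 and 1.31. The part of these markers in the members' values was not tested.

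With PD0325901 against untreated cells, 2 of the 9 members passed, H19 and Mest, both lower, where 6.80% of all genes passed (2.87% higher and 3.93% lower) and 4 of the members had an unadjusted p under 0.05. The median was -0.46 against -0.07 over all genes. Mest was at 8.63 and 19.2 FPKM and fell (-2.59, SE 0.32, adjusted p = 0.00383), a call kept with any library left out and without PD0325901 replicate 2 at -3.16. H19 was at 31.4 and 99.2 FPKM and fell (-2.25, SE 0.47, adjusted p = 0.0234). The PD0325901 replicates are apart by 1.66 on the log2 scale for H19, where the median gene differs by 0.23, so its value was -1.43 (adjusted p = 0.0261) without replicate 1 and -3.08 (0.00185) without replicate 2. The call of H19 is lost without untreated replicate 1 (-2.28, adjusted p = 0.113) or replicate 2 (-2.23, 0.125), with no filter (0.0874) and with only the groups compared in the fit (0.0778).

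Igf2 was at 89.9 and 192.6 FPKM with PD0325901, the second of these near the untreated level (-0.61, SE 0.32, adjusted p = 0.263). Grb10 was at 147.5 and 116 FPKM, above both untreated libraries and by less than 2-fold (0.91, SE 0.14, adjusted p = 0.00899). Without PD0325901 replicate 2, whose title line differs from its label, Grb10 (1.09, adjusted p = 0.0104), Igf2 (-1.16, adjusted p = 0.015) and Peg3 (-1.46, adjusted p = 0.0439) passed as well, while over all left-out libraries the adjusted p of these genes ran up to 0.0694, 0.909 and 0.707. Peg3 was at 0.768 and 1.87 FPKM, Igf2r at 44.0 and 60.1, Dlk1 at 60.8 and 59.0, Plagl1 at 0.502 and 2.12 and Cdkn1c at 53.5 and 53.1. With PD0325901 3 fibroblast markers rose, Col1a1, Col1a2 and Postn, and the summed level was 5147 and 5851 FPKM. Krt14, Kdr and Pparg rose and Epcam fell, with summed levels of 1.97 and 0.640 FPKM against 1.11 and 1.295 for epithelial markers, 0.917 and 0.806 against 0.129 and 0.211 for endothelial markers, and 11.8 and 9.16 against 8.91 and 13.85 for adipocyte markers. Krt14 and Kdr entered the test through treated libraries alone. Sums without a called gene were 0.730 and 0.575 FPKM against 1.02 and 1.31 for pluripotent and 0.203 and 0.181 against 0.0742 and 0.136 for muscle markers. The part of these markers was not tested.

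With 4OHT + PD0325901 against 4OHT day 6, 0 of the 9 members passed limma's test, where 3.56% of all genes did (2.20% higher and 1.37% lower), and 4 had an unadjusted p under 0.05. The median was 0.63 against 0.04 over all genes. Igf2 was at 56.1 and 43.95 FPKM, above both libraries of 4OHT day 6 (0.83, SE 0.32, adjusted p = 0.182). H19 was at 38.15 and 54.5 FPKM (1.64, SE 0.47, adjusted p = 0.0903) and Mest at 4.87 and 4.25 (1.23, SE 0.32, adjusted p = 0.0731). All 3 were higher in both libraries, and H19 and Mest passed when PD0325901 replicate 1 (adjusted p = 0.00857 and 0.00546) or replicate 2 (0.00857 and 0.00598) was left out, with up to 0.264 for H19 and 0.23 for Mest over the left-out libraries. Grb10, at 91.85 and 93.3 FPKM, was higher by less than 2-fold (0.63, SE 0.14, adjusted p = 0.047). Here 5 fibroblast markers rose (Col1a1, Col1a2, Col3a1, Col5a1 and Postn) and Vim fell, with summed levels of 3156 and 3256 FPKM against 2571 and 2521. Krt14 rose, with summed epithelial levels of 2.82 and 2.34 FPKM against 1.14 and 0.457, and entered the test through libraries other than those of untreated cells and 4OHT day 6. Sums without a called gene were 17.5 and 11.5 FPKM against 6.71 and 5.63 for adipocyte, 1.70 and 1.88 against 0.616 and 0.954 for endothelial, 0.912 and 1.66 against 2.74 and 2.83 for pluripotent, 1.23 and 1.01 against 0.933 and 0.666 for muscle, and 5.065 and 14.2 against 4.005 and 4.35 for haematopoietic markers. Whether these markers bear on the members was not tested.

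Against PD0325901 alone, 2 of the 9 members passed with 4OHT + PD0325901, Igf2 (-1.40, SE 0.32, adjusted p = 0.0404) and Mest (-1.48, SE 0.32, adjusted p = 0.0367), both lower, where 4.60% of all genes passed (3.34% higher and 1.26% lower) and 3 of the members had an unadjusted p under 0.05. The median was -0.38 against 0.09 over all genes, a median that quantile normalization takes to -0.05. Both calls are near the threshold and depend on single libraries. Igf2 is lost without any 1 of 9 libraries: untreated replicate 1 (-1.40, adjusted p = 0.08) or 2 (0.0798), TSA replicate 1 or 2 (0.0643 in both), 4OHT day 6 replicate 1 or 2 (0.0572 in both), 4OHT + PD0325901 replicate 1 (-1.58, 0.0794) or 2 (-1.23, 0.149), and PD0325901 replicate 2 (-0.86, 0.0614). Mest is lost without the same libraries, at untreated replicate 1 (-1.48, adjusted p = 0.0759) or 2 (0.0756), TSA replicate 1 or 2 (0.0599 in both), 4OHT day 6 replicate 1 or 2 (0.052 in both), 4OHT + PD0325901 replicate 1 (-1.58, 0.0896) or 2 (-1.39, 0.131), and PD0325901 replicate 2 (-0.91, 0.0386). Without PD0325901 replicate 1 they were -1.95 (Igf2, adjusted p = 0.00536) and -2.06 (Mest, 0.00267), and H19 passed there too (-1.12, 0.0466, with -0.29 and 0.759 in the full fit). Igf2 is also lost with the replicate block (adjusted p = 0.054), with no filter (0.122) and with only the groups compared in the fit (0.168), and Mest with no filter (0.106) and with only the groups compared (0.168). The fibroblast markers Col3a1, Pdgfrb and Postn fell, with summed levels of 3156 and 3256 FPKM against 5147 and 5851. Kdr and Des rose, with summed endothelial levels of 1.70 and 1.88 FPKM against 0.917 and 0.806 and muscle levels of 1.23 and 1.01 against 0.203 and 0.181, and reached 1 FPKM with TSA and 4OHT + PD0325901 alone. Sums without a called gene were 2.82 and 2.34 FPKM against 1.97 and 0.640 for epithelial and 0.912 and 1.66 against 0.730 and 0.575 for pluripotent markers. No test was made of their part in the members' values.

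The interaction of 4OHT with PD0325901 passed for 1 of the 9 members, Mest, where 0.654% of all genes passed (0.466% higher and 0.188% lower) and 3 of the members had an unadjusted p under 0.05. The median was 0.50 against 0.09 over all genes, and quantile normalization takes the latter to -0.02. Mest fell with each agent, and with both it was at 4.87 and 4.25 FPKM, above the level that the sum of the log2 changes gives, by 3.82 (SE 0.46, adjusted p = 0.0182). This call is lost without untreated replicate 1 (3.79, adjusted p = 0.0741), untreated replicate 2 (3.86, 0.0711) or 4OHT + PD0325901 replicate 1 (3.73, 0.0523), and with no filter (3.82, 0.0623), and without PD0325901 replicate 2 it was 4.40 (0.000379). H19 had a value of similar size, 3.90 (SE 0.66, adjusted p = 0.0628), which passed without PD0325901 replicate 1 (3.07, 0.0149) or replicate 2 (4.73, 0.0016, with up to 0.207 over the left-out libraries) or with values of 0 taken as missing (3.90, 0.0469). Igf2, at 1.44 (SE 0.45, adjusted p = 0.208), passed without PD0325901 replicate 2 (1.98, 0.0186, with up to 0.476 over the left-out libraries).

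With TSA against untreated cells, 6 of the 9 members passed, where 31.2% of all genes did (18.8% higher and 12.5% lower), so a large share of all genes moved in this comparison. H19, Igf2, Mest and Grb10 fell and Plagl1 and Peg3 rose, and 8 of the 9 had an unadjusted p under 0.05. The median was -0.97 against 0.10 over all genes, which quantile normalization takes to -0.01, and the groups did not overlap in any of the 9, as in 84.8% of all genes.

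H19 was at 5.04 and 4.53 FPKM with TSA against 261 and 272, the lowest level of H19 in the inhibitor experiment, and fell (-5.77, SE 0.47, adjusted p = 7.96e-05). Igf2 was at 64.4 and 58.6 FPKM against 199.8 and 201, and fell less (-1.70, SE 0.32, adjusted p = 0.00309). Mest was at 18.5 and 18.15 FPKM (-2.09, SE 0.32, adjusted p = 0.00133). All TSA libraries of these genes lay below both untreated libraries. Grb10, at 30.5 and 26.0 FPKM, fell (-1.30, SE 0.14, adjusted p = 0.000286), and Dlk1, at 39.7 and 44.4, was lower by just under 2-fold (-0.97, SE 0.11, adjusted p = 0.000388). Dlk1 passed without untreated replicate 1 (-1.02, adjusted p = 0.00363) or TSA replicate 2 (-1.05, adjusted p = 0.00306), with up to 0.00523 over the left-out libraries, and also with size factors (-1.04, 0.000365) and quantile normalization (-1.03, 0.000134).

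Plagl1 was at 12.1 and 14.1 FPKM with TSA against 0.405 and 0.416 in untreated cells, its highest values in the inhibitor experiment, and rose (4.69, SE 0.79, adjusted p = 0.00194). Since Plagl1 entered the test through treated libraries, a difference from untreated cells is built into its being tested. Peg3 was at 7.29 and 7.90 FPKM and rose (1.69, SE 0.40, adjusted p = 0.00968), a call lost without untreated replicate 2 (1.62, adjusted p = 0.0514) or TSA replicate 2 (1.63, adjusted p = 0.0593). Cdkn1c, at 73.9 and 96.0 FPKM (0.72, SE 0.40, adjusted p = 0.169), lay above both untreated libraries and Igf2r, at 53.7 and 42.0 (-0.56, SE 0.21, adjusted p = 0.0514), below them. Meg3 was at 0.0424 FPKM and listed at 0 with TSA, and at most at 0.0424 in the inhibitor experiment, where the deposited upper bounds reach 2.63.

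Markers of other cell types move with TSA. Of the 5 epithelial markers 3 reached 1 FPKM and rose (Epcam, Cdh1 and Krt14), and their summed level was 33.8 and 40.5 FPKM against 1.11 and 1.295 in untreated cells, with Epcam the most abundant at 28.1 and 29.2. The haematopoietic markers summed to 67.05 and 60.6 FPKM against 4.90 and 4.27, nearly all from Cd68, while Cd3e and Adgre1 were listed at 0. Of the endothelial markers Kdr rose, with a summed level of 2.04 and 2.25 FPKM and Cdh5 listed at 0. Of the muscle markers Des rose, with a summed level of 2.20 and 1.55 FPKM against 0.0742 and 0.136. Cdh1 entered the test through the TSA libraries alone, and Krt14, Kdr and Des through treated libraries alone, so a difference from untreated cells is built into their being tested. Of 11 fibroblast markers 2 rose (Thy1 and Vim) and 5 fell, and the summed level was 3455 and 3538 FPKM against 3104 and 3361. Sums without a called gene were 1.78 and 2.06 FPKM against 1.02 and 1.31 for pluripotent and 5.43 and 6.26 against 8.91 and 13.85 for adipocyte markers. The part of these markers in the members' values was not tested.

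Igf2 and H19 lie beside each other on chromosome 7 (mm9, 149836673 to 149852721 and 149761435 to 149764051) and share enhancers, so their ratio was read in each library. Igf2 over H19, as a ratio of FPKM and so per length, was 0.368, 0.433 and 0.4095 in untreated total RNA, 0.328, 0.409 and 0.342 at 4OHT day 5, and 0.159, 0.172 and 0.178 in long-term KO. The long-term libraries lay below all others of that experiment, and untreated and day 5 overlapped. It was 1.02 and 1.01 in siCtrl, 0.523 and 0.492 in siDnmt1, 1.12 and 0.806 in 4OHT + siCtrl, and 1.27 and 1.55 in 4OHT + siDnmt1. The siDnmt1 libraries were the lowest of the siRNA experiment. In the inhibitor experiment it was 0.764 and 0.739 in untreated cells, 12.8 and 12.95 with TSA, 2.865 and 1.94 with PD0325901, 2.32 and 1.59 at 4OHT day 6, and 1.47 and 0.806 with both. Every treated library of that experiment lay above both untreated ones, and TSA stood apart from the rest. The ratio was not tested.

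**Figure D4:**
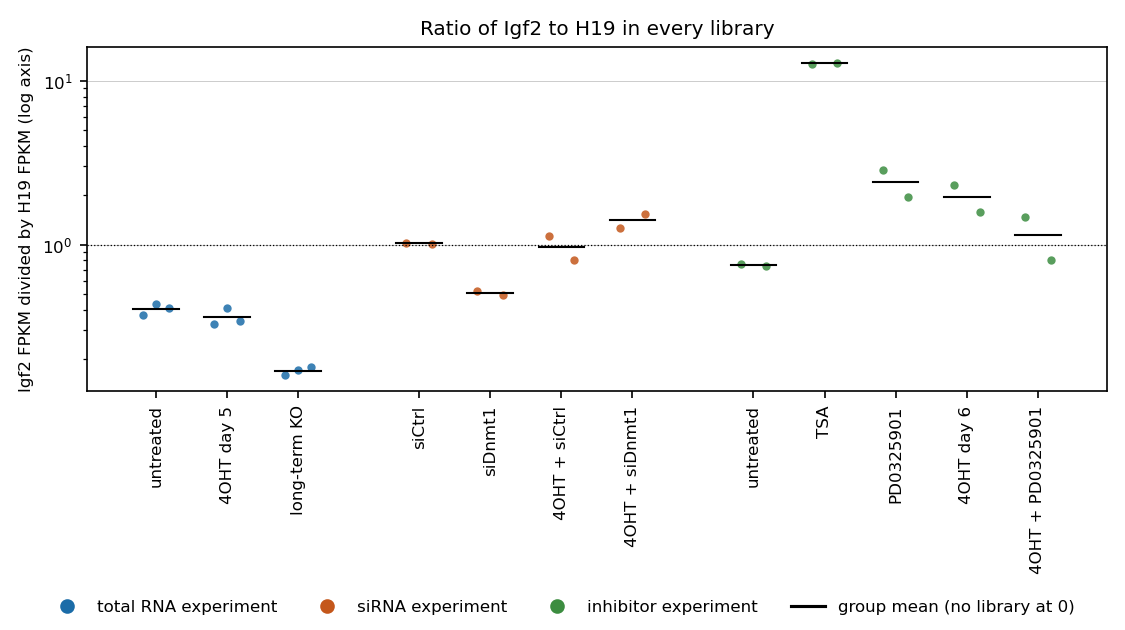
Ratio of Igf2 to H19 in FPKM (log axis) in each of the 27 libraries by group; points are libraries and lines are group means. The ratio is 12.8 and 12.95 with TSA and between 0.159 and 0.178 in long-term KO, and between 0.328 and 2.865 in all other libraries.

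Other imprinted genes were counted from lists. Of 23 other paternally expressed genes, 9, 10 and 13 were tested in total RNA, siRNA and inhibitor libraries. At 4OHT day 5 and with siDnmt1 0 of them passed limma's test, where 3.22% and 4.26% of all genes did. In long-term KO 1 rose (7.67% of all genes), with 4OHT + siCtrl 1 fell (3.11%), at 4OHT day 6 2 fell (5.89%), with PD0325901 1 fell (3.93%), and with TSA 5 rose (18.8%) and 2 fell (12.5%). Sgce, of the sarcoglycan family, was at 21.2, 20.1 and 21.4 FPKM in long-term KO against 9.78, 10.8 and 9.49, and rose (1.06, SE 0.06, adjusted p = 2.12e-06), just past the limit. Size factors take Sgce to 1.00 and a pseudocount of 1 to 0.99, just under it (adjusted p = 1.81e-06 and 1.82e-06). With TSA Sgce was at 4.91 and 4.625 FPKM against 18.2 and 17.5 and fell (-1.88, SE 0.15, adjusted p = 7.89e-05).

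Peg10, a gene derived from a retrotransposon and the neighbour of Sgce, was at 29.3 and 33.0 FPKM in untreated inhibitor libraries, 9.95 and 10.7 at 4OHT day 6, 8.43 and 9.27 with PD0325901, and 66.3 and 122 with TSA. It fell with 4OHT (-1.58, SE 0.25, adjusted p = 0.00646) and with PD0325901 (-1.80, SE 0.25, adjusted p = 0.00608), and rose with TSA (1.53, SE 0.25, adjusted p = 0.00184). Both falls are lost without untreated replicate 2 (-1.50, adjusted p = 0.0514, and -1.72, adjusted p = 0.055). With 4OHT + siCtrl Peg10 was at 11.9 and 13.2 FPKM against 25.9 and 25.4 and fell (-1.02, SE 0.13, adjusted p = 0.0115), a call lost without siCtrl replicate 1 (-1.01, 0.0882) or 2 (-1.04, 0.102) or 4OHT + siCtrl replicate 1 (-0.95, 0.0153), with a pseudocount of 1 (-0.97, 0.0103) or with only the groups compared (0.0634).

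With TSA 7 of the 13 paternally expressed genes tested passed, where 31.2% of all genes did (18.8% higher and 12.5% lower), and the median of all 13 was 0.41 against 0.10 over all genes. Peg12 fell (-2.52, SE 0.39, adjusted p = 0.00132). Sfmbt2 (2.09, adjusted p = 0.0015), Dio3 (1.43, adjusted p = 0.0109) and Mkrn3 (1.30, adjusted p = 0.0102) rose from levels under 1 FPKM. All 3 entered the test through the TSA libraries alone, so a difference is built into their being tested, and quantile normalization takes these 3 to 0.73, 0.01 and 0.03 and a pseudocount of 1 to 0.94, 0.70 and 0.66, under the limit. Dio3 is lost without untreated replicate 2 (1.30, 0.0642) and Mkrn3 without untreated replicate 1 (1.28, 0.0517).

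Of 23 other maternally expressed genes 9, 10 and 10 were tested, and in 11 of the 12 comparisons and in 1 interaction 1 or 2 of them passed, mostly Dcn, where 1.49% to 13.8% of all genes did in the comparisons and 0.388% in the interaction, while with TSA, where 31.2% of all genes passed, 0 did in limma's test. Dcn, which encodes the matrix proteoglycan decorin and is imprinted in placenta, was at 12.25, 11.4 and 11.1 FPKM in untreated total RNA. It was at 3.41, 3.84 and 4.18 at 4OHT day 5, and 13.45, 12.5 and 13.3 in long-term KO. Dcn thus fell at day 5 (-1.58, SE 0.08, adjusted p = 6.09e-06) and lay near the untreated level in long-term KO. In the siRNA experiment it was at 49.4 and 49.2 FPKM in siCtrl, 16.3 and 16.3 in siDnmt1, 1.40 and 1.39 in 4OHT + siCtrl, and 3.92 and 3.63 in 4OHT + siDnmt1. It fell with siDnmt1 (-1.59, SE 0.11, adjusted p = 0.00153) and with 4OHT (-5.05, SE 0.11, adjusted p = 2.6e-05), and the interaction was 2.96 (SE 0.15, adjusted p = 0.00166). In the inhibitor experiment it was at 11.3 and 11.7 FPKM untreated, 1.10 and 2.09 at 4OHT day 6, 53.3 and 113 with PD0325901, and 10.7 and 14.8 with both. It fell with 4OHT (-2.84, SE 0.41, adjusted p = 0.00462) and rose with PD0325901 (2.74, SE 0.41, adjusted p = 0.00776), the latter lost without untreated replicate 1 (2.71, 0.0564) or 2 (2.76, 0.0562). Ppp1r9a fell in long-term KO, from 1.65, 1.59 and 1.92 FPKM to 0.198, 0.324 and 0.18 (-2.47, SE 0.28, adjusted p = 0.00013). It reached 1 FPKM in untreated and 4OHT day 5 libraries alone, so a lower level in long-term KO is built into its being tested. Gnas, imprinted in some of its isoforms, fell with TSA (-1.16, SE 0.18, adjusted p = 0.00132).

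**Figure D5:**
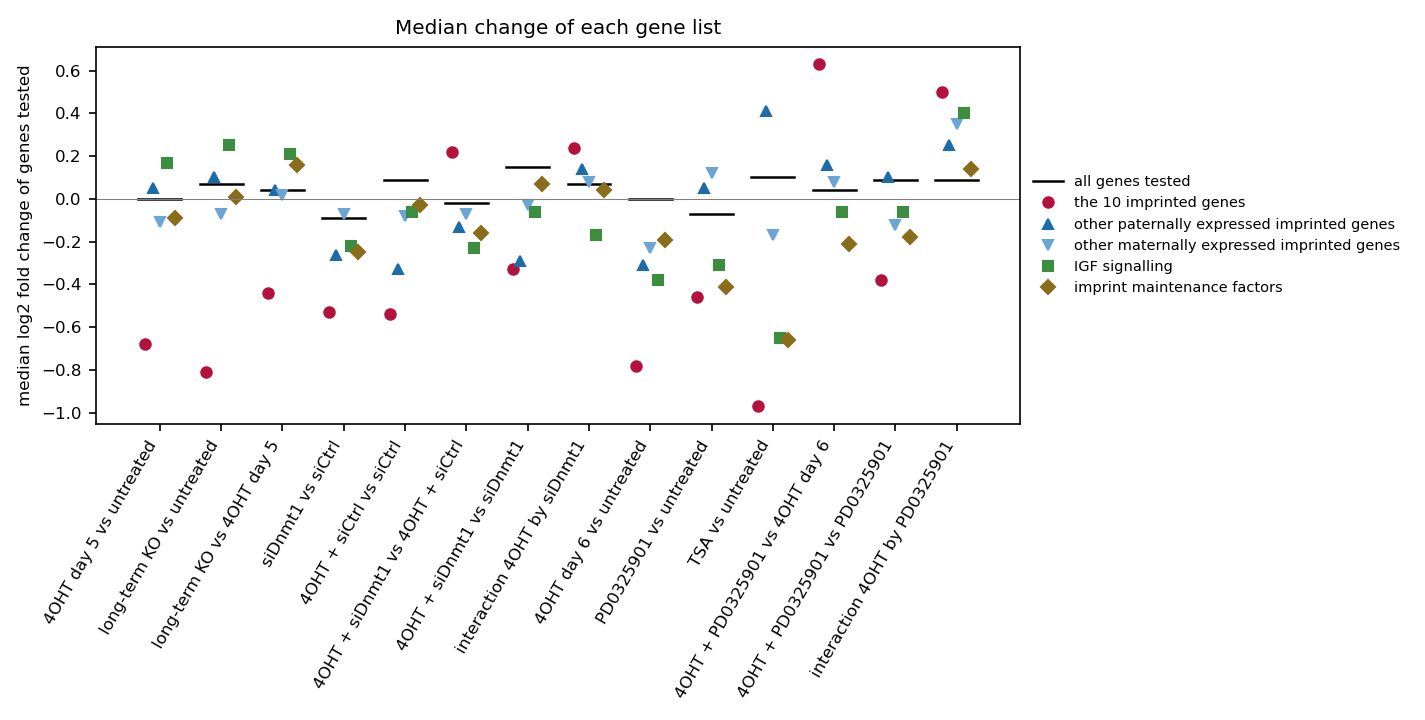
Median log2 fold change of each gene list in each comparison and interaction, beside the median of all genes tested. The imprinted members lie at -0.68 at 4OHT day 5, -0.81 in long-term KO, -0.78 at 4OHT day 6 and -0.97 with TSA, where all genes lie at 0.00, 0.07, 0.00 and 0.10.

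Of 14 genes of IGF signalling 11, 13 and 12 were tested. Igf1, the other ligand of the IGF receptor, was at 4.35 and 4.74 FPKM in untreated inhibitor libraries and 0.7955 and 0.851 at 4OHT day 6, and fell (-2.33, SE 0.26, adjusted p = 0.00182). With 4OHT + siCtrl it was at 2.27 and 1.11 FPKM against 11.8 and 10.7 (-2.74, SE 0.62, adjusted p = 0.0433), a call lost without siCtrl replicate 1 (-2.68, 0.18) or 2 (-2.81, 0.203), siDnmt1 replicate 1 (-2.74, 0.096) or 2 (-2.74, 0.0955), or 4OHT + siCtrl replicate 2 (-2.26, 0.0817), and with a pseudocount of 0.01 (0.0568), no filter (0.127), quantile normalization (0.0882) or only the groups compared (0.073). Among the IGF binding proteins, Igfbp3 was higher in long-term KO, at 1.12, 1.14 and 1.17 FPKM against 0.231, 0.266 and 0.278, and rose (1.80, SE 0.13, adjusted p = 1.17e-05), as did Igfbp2, at 1.745, 1.77 and 1.62 against 0.256, 0.186 and 0.231 (2.49, SE 0.18, adjusted p = 1.14e-05). Both reached 1 FPKM in the long-term libraries alone, so a higher level there is built into their being tested. At 4OHT day 5 Igfbp3 rose (1.15, adjusted p = 0.000499, 0.57 after quantile normalization) and Igfbp2 fell (-1.13, adjusted p = 0.00254), to -0.99 and under the limit without 4OHT day 5 replicate 1. A pseudocount of 1 takes Igfbp3 to 0.77 in long-term KO and to 0.43 at day 5, and Igfbp2 to -0.22 at day 5, all under the limit. With TSA 1 of the 12 tested rose and 5 fell, where 18.8% of all genes rose and 12.5% fell, with a median of -0.65 against 0.10 over all genes, and Igfbp4 went from 84.0 and 81.4 FPKM to 11.7 and 10.4 (-2.90, SE 0.32, adjusted p = 0.000278). Igfbp6 fell with TSA (-1.12, adjusted p = 0.00124).

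Of 17 factors that maintain imprints 13, 14 and 14 were tested, and 0 passed limma's test in the comparisons of total RNA. Of all genes 3.22% passed at 4OHT day 5, 13.8% in long-term KO and 12.5% between these groups. Dnmt1 was the only 1 that passed in the siRNA experiment, where it was targeted. Of all genes 1.49% to 5.60% passed in the comparisons there. At 4OHT day 6 Tet2, an enzyme that oxidizes methylcytosine, fell (-1.77, SE 0.48, adjusted p = 0.0378), a call lost without TSA replicate 1 (-1.77, 0.0705) or 2 (-1.77, 0.0696) or 4OHT day 6 replicate 1 (-1.19, 0.153), with a pseudocount of 1 (-0.85, 0.0215), no filter (0.113) or only the groups compared (0.0699), and at -2.35 (0.0312) without 4OHT day 6 replicate 2. Tet2 reached 1 FPKM in the untreated libraries alone, so a lower level elsewhere is built into its being tested. With TSA 5 of the 14 fell and 0 rose, where 12.5% of all genes fell and 18.8% rose, with a list median of -0.66 against 0.10 over all genes. Trim28, the partner of Setdb1, was at 89.5 and 90.8 FPKM in untreated cells and 32.9 and 28.45 with TSA (-1.56, SE 0.11, adjusted p = 4.05e-05). Ctcf, the insulator protein that binds the unmethylated control region between Igf2 and H19, went from 37.35 and 37.9 FPKM to 18.1 and 15.0 (-1.19, SE 0.13, adjusted p = 0.000279). Dnmt3a (-1.63, SE 0.28, adjusted p = 0.00221) and Zfp57 (-1.06, SE 0.16, adjusted p = 0.00123, -0.87 without TSA replicate 2 and -0.98 with a pseudocount of 1) fell as well.

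For each of the 8 members tested in all 3 experiments, the 3 genes whose levels were most like it were found among 9299 genes, by Pearson's r over the 27 libraries, with each experiment centred on its own mean. The libraries share treatments and depth within an experiment, so r is a description. For Igf2 they were Morc4 (0.93), Sulf1 (0.85) and Enpp3 (0.85), and for H19 Ugt1a1 (0.92), Tgfbr2 (0.91) and Angptl7 (0.91). For Peg3 they were Fam102b, Alms1 and Mturn (0.94 each), and for Mest Cacna1g, Slit2 and Epha3 (0.87 each). Grb10 was most like Col5a2 (0.95), Rhobtb3 (0.94) and Serpinh1 (0.94), Igf2r like Hsd17b11 (0.88), Zfp664 (0.85) and Il1r1 (0.83), Dlk1 like Adam12 (0.81), Mid1ip1 (0.78) and Ier5l (0.77), and Cdkn1c like Tceb2 (0.84), Dynlt3 (0.82) and Mboat2 (0.80). None of the nearest genes of 1 member is another member.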

How the data were processed

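The values are the FPKM that the authors deposited for each library, from reads aligned to mm9 with TopHat2 2.0.12 (1 position kept for reads with several hits) and assembled with Cufflinks on RefSeq genes. The authors' Cuffdiff tables, which hold group FPKM, log2 fold changes and p-values of significant loci, were not used. Members were found by gene name in the siRNA and inhibitor libraries and by the locus over the gene in the total RNA libraries, which carry no names. A locus counted there when it spanned 95% of the gene, or 50% where none did, a fallback chosen after seeing the data because the Igf2 locus covers 64.0% in 8 of 9 libraries. H19 shares its locus with Mir675, Meg3 with Mir1906-2 and Mir770, and Plagl1 with Hymai.

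The tests used limma (3.58.1, under R 4.3.3), run once per experiment over every group on log2(FPKM + 0.1), with a variance trend. The p-values were adjusted by Benjamini and Hochberg over 9530 (total RNA), 11610 (siRNA) and 12231 (inhibitor) genes. The fit was tested on simulated data. A gene passed when its adjusted p was below 0.05 and it changed 2-fold or more. Tables and figures came from Python 3.11.15 (matplotlib 3.10.9, scipy 1.17.1, pandas 2.3.3, numpy 2.4.6). Members and gene lists were chosen with earlier results of these data known. From each other list up to 6 genes are named, those with the largest absolute log2 fold change among genes that passed in any comparison, and promoters come from RefSeq (GRCm38.p6).

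Whether replicates are independent cultures is not stated, so the p-values measure the spread between these samples. Comparisons within an experiment share controls. Groups hold 2 or 3 libraries, and no test of outliers was run. The smallest exact permutation p is 0.1 with groups of 3 and 0.333 with groups of 2. Alternatives changed the pseudocount (1 and 0.01), the filter, the scaling between libraries, which groups were fitted, a covariate for the replicate number, the libraries, the call and the locus rule, and values of 0 taken as missing were added after seeing the data.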

Additional observations from a re-analysis of the deposited data

Results flagged for a closer look

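Mest differed from the sum of the separate log2 changes when 4OHT and PD0325901 were given together, by 3.82 (adjusted p = 0.0182 in limma's test). The call was not kept under every alternative, as given above. The level that the sum of the changes gives lies under the 1 FPKM of the filter.

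The comparison of long-term KO with 4OHT day 5, given above, is also the difference between their changes from the untreated libraries they share. It was -2.99 for Igf2 (adjusted p = 8.39e-09), -1.93 for H19 (5.15e-07), -1.60 for Mest (4.51e-07) and 1.62 for Peg3 (1.97e-07). For Igf2r it was -0.41 (0.000137), for Grb10 0.42 (6.03e-06) and for Cdkn1c -0.46 (6.3e-05).

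Early 4OHT gave opposite signs in different experiments, and these differences were not tested. Igf2r was 0.29 at 4OHT day 5 and -0.54 with 4OHT + siCtrl, a difference of 0.84, and -0.78 at 4OHT day 6, a difference of 1.08. Peg3 was 0.50 at day 5 and -1.26 at day 6, a difference of 1.76. Cdkn1c was 0.44 at day 5 and -0.67 at day 6, a difference of 1.11. The experiments also differ in library type, so day and library type cannot be told apart.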

How the results depend on the processing

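Of 24 member values that passed, 18 still passed under every alternative in which they had a value, and of 49 values of other named genes 23 did, with no sign changed among the latter. Of 2276 member values under alternatives, 34 changed sign, and 0 of these passed in either fit. In the fits without 1 library, a group can hold a lone sample, which is assumed to vary like the other groups. The cause of each change was not tested.

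With only loci that cover 95% of the gene, chosen after seeing the data, Igf2 has no value in total RNA, and 4 members passed in long-term KO against untreated cells (5) and 3 against 4OHT day 5 (4). Numbers of members that passed moved as follows. The share of all genes that passed under each alternative, or with a library left out, is not given, so these counts have no background. At 4OHT day 5, where 0 passed, 1 did with no filter, 1 with median-ratio size factors, 7 with no fold limit, and 1 with values of 0 taken as missing, an alternative chosen after seeing the data. Long-term KO against 4OHT day 5 had 7 with no fold limit (4). For siDnmt1 against siCtrl (0) it was 3 with only the groups compared in the fit and 2 with zeros missing. For 4OHT + siCtrl against siCtrl (0) it was 2 with a pseudocount of 1, 1 with the replicate block and 3 with zeros missing. For 4OHT + siDnmt1 against siDnmt1 (1) it was 0 with no filter, 2 with only the groups compared, 0 with the replicate block and 2 with zeros missing. For PD0325901 against untreated cells (2) it was 1 with no filter, 1 with only the groups compared and 4 with no fold limit. For 4OHT + PD0325901 it was 1 with no fold limit against 4OHT day 6 (0), and against PD0325901 (2) 0 with no filter, 0 with only the groups compared and 1 with the replicate block. For the interaction of 4OHT with PD0325901 (1) it was 0 with no filter and 2 with zeros missing.

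Leaving out single libraries, the number that passed ran from 0 to 2 at 4OHT day 5, 0 to 1 for siDnmt1, 0 to 2 for 4OHT + siCtrl, 0 to 1 for 4OHT + siDnmt1 against 4OHT + siCtrl, 0 to 3 against siDnmt1, 3 to 4 at 4OHT day 6, 1 to 5 for PD0325901, 5 to 7 for TSA, 0 to 2 for 4OHT + PD0325901 against 4OHT day 6, 0 to 3 against PD0325901, and 0 to 3 for its interaction. It stayed at 5 and 4 in the comparisons of long-term KO with untreated cells and 4OHT day 5, and at 0 for the interaction with siDnmt1.

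Log2 fold changes whose sign changed had these ranges over the left-out libraries, with the value of the full fit in brackets. For long-term KO against 4OHT day 5: Dlk1 -0.71 to 0.02 (-0.36). For siDnmt1 against siCtrl: Cdkn1c -0.03 to 0.15 (0.06). For 4OHT + siCtrl against siCtrl: Cdkn1c -0.88 to 0.06 (-0.41), Peg3 -1.06 to 0.17 (-0.44) and Plagl1 -0.05 to 1.99 (0.97). For 4OHT + siDnmt1 against 4OHT + siCtrl: Cdkn1c -0.17 to 0.78 (0.30), Mest -2.31 to 3.11 (0.40), Plagl1 -0.80 to 1.24 (0.22) and H19 -0.28 to 1.34 (0.53). For the interaction of 4OHT with siDnmt1: Cdkn1c -0.23 to 0.71 (0.24), Igf2r -0.02 to 0.59 (0.29), Peg3 -0.50 to 0.73 (0.12), Grb10 -0.13 to 0.33 (0.10), H19 -0.66 to 0.96 (0.15) and Plagl1 -0.26 to 1.78 (0.76). For 4OHT + siDnmt1 against siDnmt1: Peg3 -0.80 to 0.14 (-0.33) and Igf2 -1.15 to 0.20 (-0.48). For 4OHT + PD0325901 against PD0325901: Plagl1 -0.44 to 1.45 (0.51), Dlk1 -0.07 to 0.19 (0.06), H19 -1.12 to 0.54 (-0.29) and Cdkn1c -0.65 to 0.52 (-0.06). For the interaction of 4OHT with PD0325901: Peg3 -0.09 to 1.09 (0.50). For 4OHT + PD0325901 against 4OHT day 6: Igf2r -0.23 to 0.14 (-0.05), Plagl1 -1.21 to 0.91 (-0.15) and Dlk1 -0.26 to 0.00 (-0.13). With quantile normalization Peg3 was -0.40 for the interaction of 4OHT with siDnmt1, and Dlk1 was -0.08 for 4OHT + PD0325901 against PD0325901 and -0.05 with median-ratio size factors. Whether libraries of different groups with the same number share more than that number is not stated. The r of their deviations lay between -0.06 and 0.11 in total RNA and between -0.05 and 0.02 in the siRNA experiment. In the inhibitor experiment it lay between -0.04 and 0.23. There it was 0.14 for PD0325901 with 4OHT day 6 and 0.17 for PD0325901 with 4OHT + PD0325901. For 4OHT day 6 with 4OHT + PD0325901 it was 0.23. What the number marks in these groups was not tested. Meg3 is at or near 0 in the deeper total RNA libraries as well as in the others, and silence cannot be told apart from how its locus was annotated.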
